A study of Mus musculus with 5 samples.

Results

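Cycling cells with high and with low basal keratin transcripts were compared within organoids of the MMTV-PyMT mouse model. In this model the mouse mammary tumor virus promoter drives polyoma middle T, an oncogene, in mammary epithelial cells, so all cells compared here come from tumor epithelium that carries the same transgene. The organoids were grown in medium with FGF2, B27 and N-Acetyl-L-cysteine, kept in BME (basement membrane extract) for 5 days, dissociated, and sorted as live DAPI-negative single cells into 384-well plates for SORT-seq, which reads the 3′ ends of transcripts with a molecular barcode. The 3 BME plates were used. A further 2 plates of cells from Collagen I gels were gated in the same way and held too few basal cycling cells for a comparison, with 8 and 9 basal against 30 and 27 luminal cycling cells.

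Cells were assigned from their own transcripts. A well was kept with over 2000 counts and under 8000 genes, and every value was scaled to 10000 counts of the well. A cell was called cycling when Mki67, Top2a, Cdk1, Ccnb1, Birc5 and Ube2c summed to at least 6, basal when Krt5, Krt14 and Krt17 summed to at least 5, and luminal when these keratins summed to less than 2. Of 810 BME cells, 91 were basal cycling cells (29, 24 and 38 on plates 1, 2 and 3) and 241 were luminal cycling cells (98, 73 and 70). Another 43 cycling cells lay between the keratin gates and entered neither group. The remaining cells, 166 basal and 205 luminal, lay under the cycling gate and served as the non-cycling reference, besides 64 between the keratin gates.

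In the mammary gland, basal cells line the ducts on the side of the basement membrane, are held there by integrins and hemidesmosomes, and are specified by the transcription factor p63. Luminal cells face the lumen and make the secreted products of the gland. A dividing cell passes G1, in which D-type cyclins and their CDK inhibitors set whether it goes on, then S phase, in which the DNA is copied, and then G2 and mitosis. The comparison of the 2 groups asks what separates basal from luminal tumor cells when both are in the cell cycle.

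The median keratin sum per 10000 counts was 13.4 in basal and 0.457 in luminal cycling cells, and 48 luminal cycling cells had no keratin count. Close to the limits lay 8 basal cycling cells with a keratin sum between 5 and 6, 10 cycling cells between 4 and 5, 47 luminal cycling cells between 1 and 2, and 19 cycling cells between 2 and 3. At the cycling limit, 3 basal and 21 luminal cells had a sum between 6 and 7, and 10 basal and 19 luminal cells lay just below, between 5 and 6. The median count per cell was lower in basal cycling cells on each plate, at 21805, 35824 and 36502 counts against 34075, 38881 and 42015 in luminal cycling cells.

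**Figure D1:**
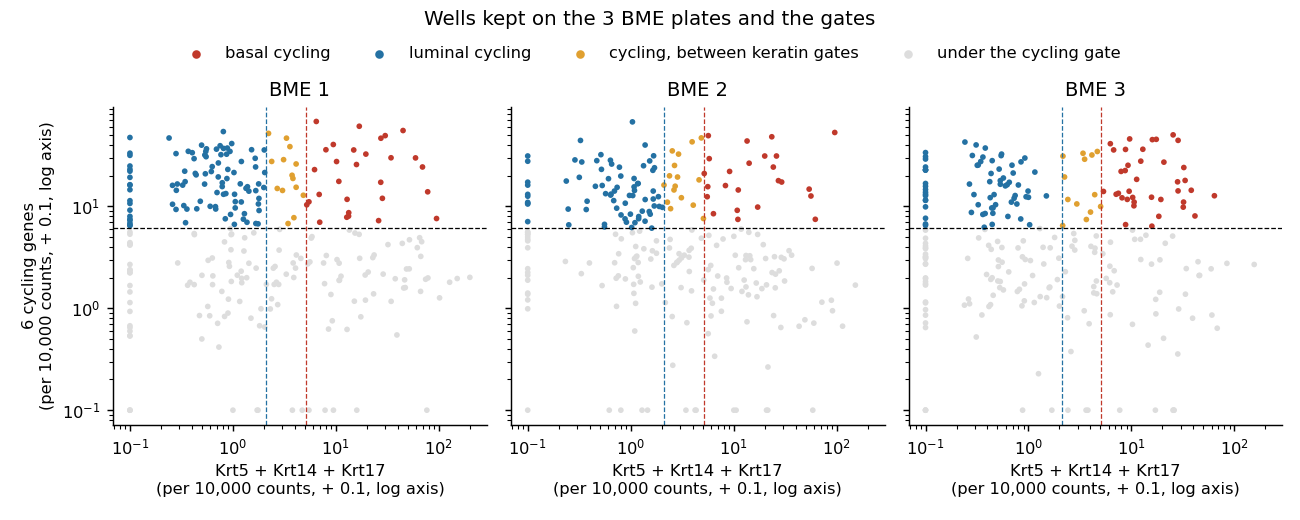
Each point is one of the 810 BME cells, placed by its summed basal keratins (x axis) and its summed cycling genes (y axis), both per 10000 counts plus 0.1 on log axes, with 1 panel per plate. Dashed lines mark the gates. Basal cycling cells (red, 91) stand to the right of the keratin limit and luminal cycling cells (blue, 241) to the left of the lower one.

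The genes that chose the cells describe the groups and were not tested. Levels are in CPM, counts scaled to a total of 1e6 per summed group. In the summed basal cycling cells Krt5, a keratin of basal epithelia, stood at 1476, 1000.1 and 774 CPM on plates 1, 2 and 3, and in the luminal sums at 26.4, 29.9 and 15.6 CPM. Its partner Krt14 stood at 806, 803 and 807 CPM against 29.6, 36.2 and 15.6 CPM, and Krt17 at 175, 164 and 189 CPM against 3.74, 6.31 and 4.23 CPM. After each cell was thinned to 2000 counts, Krt5 was seen in 61.5% of basal and 3.32% of luminal cycling cells, and all 3 keratins were seen together, without thinning, in 66 of 91 basal and 13 of 241 luminal cycling cells. All 6 cycling genes were higher in the basal sum of every plate. Mki67, a marker of dividing cells, stood at 545, 389 and 456 CPM in basal and 408, 301 and 334 CPM in luminal cycling cells, and Ccnb1, the cyclin of mitotic entry, at 349, 282 and 264 CPM against 218, 185 and 179.5 CPM. The groups were not equal in the cycling score that admitted them, with a median sum per 10000 counts of 17.3 in basal and 15.4 in luminal cycling cells. On plate 3 this median was the lower one in basal cells (14.2 against 15.7), and on plates 1 and 2 it was the higher one (22.8 against 16.3 and 17.5 against 13.0).

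Whether a keratin class held more cycling cells was not set by the rule. On plates 1 and 2 fewer basal than luminal cells passed the cycling gate, 34.1% (95% exact Clopper-Pearson interval 24.2 to 45.2) against 58.3% (50.5 to 65.9), and 26.1% (17.5 to 36.3) against 57.5% (48.4 to 66.2). On plate 3 the shares were 47.5% (36.2 to 59.0) and 46.4% (38.2 to 54.6). The mean share was 35.9% ± 10.8 in basal and 54.1% ± 6.68 in luminal cells (SD, n = 3 plates), a difference of -18.2 ± 17.1 percentage points that did not pass the test (two-sided exact permutation test of the paired differences, p = 0.50, where 3 pairs cannot go below 0.25). These intervals cover counting error only. Cells between the keratin gates were cycling in 40.2% ± 2.10.

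Expression was then compared between the summed cycling cells of each plate, paired by plate. Of 9742 genes tested outside the rule, 1265 were higher in basal cycling cells (13.0%) and 1118 were lower (11.5%), at an adjusted p under 0.05 (edgeR quasi-likelihood test). Without plate 3 the number called fell from 2383 to 1378, and without the block for plate to 1328. A change of at least 2-fold was found for 495 of the higher and 314 of the lower genes. The plates of the groups did not overlap for 30.8% of all genes tested. The sums held 811136 to 1362345 counts in the basal and 3012632 to 3744239 counts in the luminal group. No source says that the plates came from separate cultures, and p-values therefore measure the spread between plates, which may be technical.

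The largest changes in each direction were ranked among genes that passed the test. Their plates also had to lie apart, with at least 50 CPM in one group. Among the 12 genes with the largest rise in basal cycling cells, Sparc, a collagen-binding matrix protein, stood at 655, 907 and 709 CPM in the basal and 35.5, 33.5 and 20.8 CPM in the luminal sums of plates 1, 2 and 3. Its log2 fold change was 4.62 ± 0.12 (SE; adjusted p = 3.8e-18, edgeR quasi-likelihood test), and after thinning it was seen in 67.0% of basal and 4.56% of luminal cycling cells. Col17a1, the hemidesmosomal collagen that spans the basal cell membrane, is at chr19:47646344-47692094 in mm10 and stood at 331.6, 397 and 240.0 CPM against 15.0, 19.9 and 7.81 CPM, with a log2 fold change of 4.49 ± 0.13 (adjusted p = 1.7e-17). Each basal sum was more than 10 times every luminal sum for Col17a1. Snai2, a zinc finger repressor of the basal lineage, stood at 92.5, 83.3 and 94.7 CPM against 3.20, 4.65 and 2.93 CPM (log2 fold change 4.61 ± 0.22, adjusted p = 2.8e-13). Igfbp3, a binding protein of insulin-like growth factors, had the largest fold change of the 12 at 5.06 ± 0.33 (adjusted p = 4.5e-11), and its basal values spread widely, at 28.4, 87.0 and 60.2 CPM against 1.34, 3.32 and 0.325 CPM.

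Secreted regulators and receptors were among the same 12 genes. Sostdc1, a secreted inhibitor of BMP and Wnt signals, stood at 389.6, 212 and 88.1 CPM in basal and 8.55, 8.30 and 4.55 CPM in luminal cycling cells, and its level on plate 1 was the highest of the 3. Serpinf1, a secreted serpin, was even across plates at 250.3, 259 and 226 CPM against 7.21, 12.3 and 8.78 CPM. Dll1, a Notch ligand, stood at 62.9, 55.2 and 57.3 CPM against 3.20, 1.99 and 2.60 CPM, with a log2 fold change of 4.42 ± 0.26 (adjusted p = 9.8e-12). The other 5 were Fat2, a large cadherin, Postn, a matricellular protein, Fgfr2, a receptor for fibroblast growth factors, Id4, an inhibitor of basic helix-loop-helix factors, and Lama3, the alpha chain of laminin-332, with log2 fold changes of 3.83, 3.80, 3.72, 3.64 and 3.41. For all 12 genes the lowest basal plate stood above the highest luminal plate, as the naming of these genes required.

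The 12 genes with the largest fall in basal cycling cells had varied roles. Cxcl5, a chemokine for neutrophils, was among them, at 287, 131 and 66.8 CPM in the basal and 1624, 2164 and 1633 CPM in the luminal sums (log2 fold change -3.64 ± 0.21, adjusted p = 3.6e-12). It was seen in 23.1% of basal and 63.1% of luminal cycling cells after thinning. Cited1, a transcriptional co-regulator of luminal cells, had the largest fall of the 12, from 43.0, 65.1 and 44.6 CPM in luminal to 4.93, 1.23 and 0.734 CPM in basal cycling cells (log2 fold change -4.61 ± 0.37, adjusted p = 1.3e-09). Its highest basal sum stood far below its lowest luminal sum. Csf3, the growth factor of granulocytes, stood at 60.6, 219 and 117 CPM in luminal and 6.16, 7.35 and 4.40 CPM in basal cells, and its luminal level was lowest on plate 1 and highest on plate 2.

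Kcne3, a subunit of potassium channels, was the most even of the luminal genes, at 253, 259 and 245 CPM in luminal and 19.7, 11.03 and 22.8 CPM in basal cycling cells (log2 fold change -3.78 ± 0.16, adjusted p = 2.4e-14). Csn1s1, a casein of milk, stood at 52.9, 69.0 and 92.4 CPM against 12.3, 3.68 and 2.94 CPM (log2 fold change -3.70 ± 0.31). The remaining genes were Gabrp, a subunit of GABA receptors, St8sia6, a sialyltransferase, Rbp4, a carrier of retinol, Il1rn, the antagonist of the interleukin-1 receptor, Atp1b1, a subunit of the sodium pump, Cyp1b1, a cytochrome P450 enzyme, and Pglyrp1, a peptidoglycan-binding protein. Their log2 fold changes were -4.29, -3.90, -3.78, -3.32, -3.17, -3.12 and -3.07. All of these genes and the 12 higher ones passed the test and kept their direction in every alternative that tested them.

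**Figure D2:**
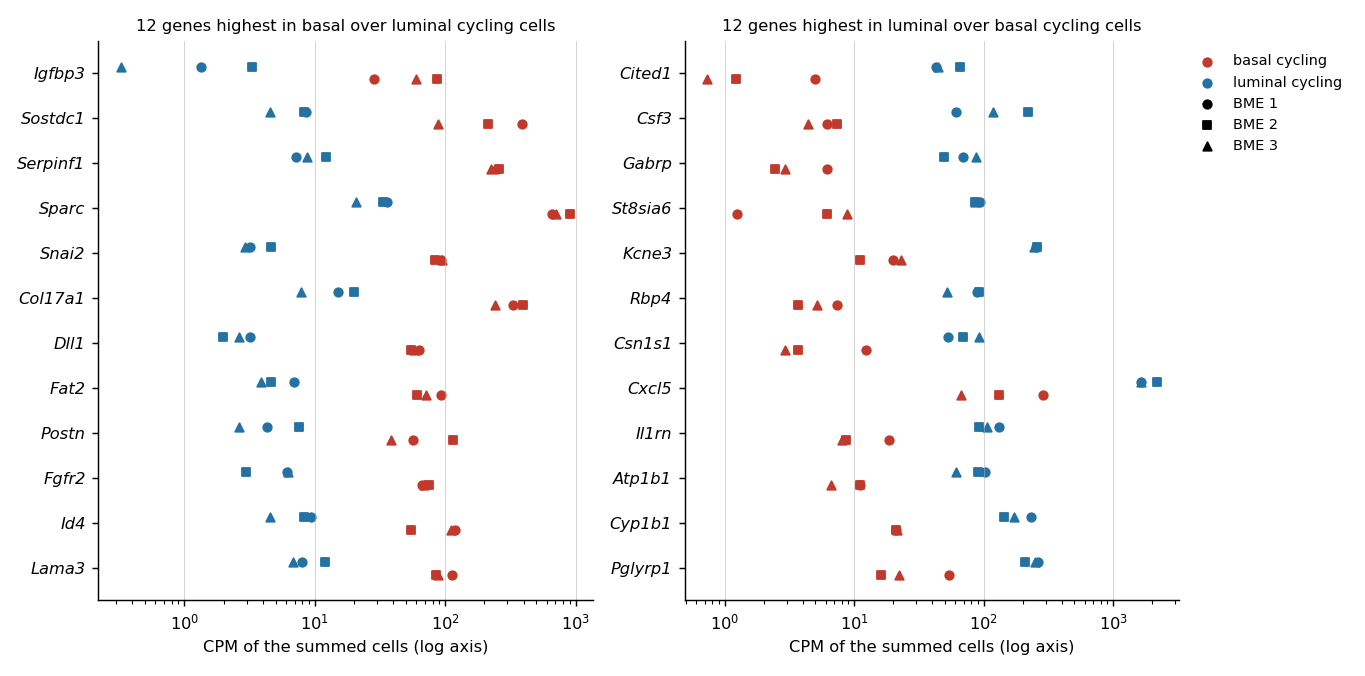
CPM of the summed basal (red) and luminal (blue) cycling cells on a log axis, with 1 marker shape per plate, for the 12 genes with the largest rise and the 12 with the largest fall in basal cycling cells. Genes were ranked among those that passed the test, with plates apart and at least 50 CPM in one group. Sparc runs from 655 to 907 CPM in basal and from 20.8 to 35.5 CPM in luminal sums, and Kcne3 from 245 to 259 CPM in luminal and from 11.03 to 22.8 CPM in basal sums.

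Sequences just before the gene starts are shown for 3 of these genes, 2 of them higher in luminal and 1 higher in basal cycling cells. RefSeq promoters of GRCm38.p6, from 250 bases before to 50 bases after the start, were matched by symbol for 9 of the 12 higher and 10 of the 12 lower genes. The AP-1 letters TGANTCA were found on either strand in 0 of 9 higher and 3 of 10 lower genes (Csn1s1, Il1rn and Kcne3), beside 7.933% of all 27025 promoters. The E-box CAGGTG, which binds Snai factors, was found in 2 of 9 higher (Igfbp3 and Sparc) and 1 of 10 lower genes, beside 20.03% of all promoters. The TFAP2 letters GCCNNNGGC were in 0 of 9 and 2 of 10 (16.51% of all), and the forkhead letters TGTTTAC in 0 of 9 and 1 of 10 (3.549% of all). The 200 bases before the start are given 5′ to 3′ on the strand of the gene, with the AP-1 letters in capitals, for Kcne3 (chr7:100176470-100176669, plus strand), Il1rn (chr2:24336660-24336859, plus strand) and Col17a1 (chr19:47692043-47692242, minus strand), which holds none of the 4 motifs. The motifs do not overlap in the capitals shown, and a match is a description of letters only. Both luminal genes printed are among the 3 of 10 lower genes with the AP-1 letters. The printed stretches are therefore examples and show no contrast between the groups. The starts used here are those of RefSeq. By the position given above for Col17a1, which is from GENCODE, part of its printed stretch lies inside the gene.
Kcne3: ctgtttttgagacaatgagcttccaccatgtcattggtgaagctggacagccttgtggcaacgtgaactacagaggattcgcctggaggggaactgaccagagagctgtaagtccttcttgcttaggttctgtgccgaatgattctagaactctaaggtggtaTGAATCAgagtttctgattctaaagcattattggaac
Il1rn: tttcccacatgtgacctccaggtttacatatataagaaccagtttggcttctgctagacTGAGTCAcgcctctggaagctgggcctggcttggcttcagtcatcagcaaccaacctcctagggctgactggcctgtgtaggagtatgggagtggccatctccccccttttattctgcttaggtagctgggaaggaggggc
Col17a1: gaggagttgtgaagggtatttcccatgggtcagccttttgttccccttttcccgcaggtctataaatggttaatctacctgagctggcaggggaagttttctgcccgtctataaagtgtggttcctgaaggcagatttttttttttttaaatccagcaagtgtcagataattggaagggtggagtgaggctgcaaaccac

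Basal identity outside the gating keratins went with the gate. Of 24 genes of a basal list, 17 were tested, and 16 were higher and 0 lower in basal cycling cells, with a median log2 fold change of 2.27 beside -0.01 over all genes. Trp63, which encodes p63, stood at 119.6, 175 and 128 CPM in basal and 11.2, 16.9 and 11.7 CPM in luminal cycling cells (log2 fold change 3.38 ± 0.15, adjusted p = 5.0e-14). The membrane scaffold Cav1 and the cadherin Cdh3 had log2 fold changes of 2.78 and 2.27, the p63-regulated junction gene Perp 2.09, the 14-3-3 protein Sfn 1.80, and the activin antagonist Fst 2.05. Sox9, a factor of mammary progenitors, differed least in size among the abundant members, at 861, 739 and 680.4 CPM against 567, 538 and 437 CPM (log2 fold change 0.54 ± 0.07, adjusted p = 3.1e-06). After thinning Sox9 was seen in 74.7% of basal and 62.2% of luminal cycling cells, so most cells of both groups carried it. Krt15 was the one member tested that did not pass, with 4.83 ± 2.60 CPM in basal and 6.99 ± 1.84 CPM in luminal cycling cells (SD, n = 3).

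The contractile genes of the myoepithelium were mostly too low to test. Together they summed to 113.8 to 138.5 CPM in basal and 42.2 to 55.8 CPM in luminal cycling sums. Of 12 contractile genes, 3 had enough counts for a test and all 3 were higher in basal cycling cells. These were Tpm2, a tropomyosin, at 34.5, 38.0 and 27.9 CPM against 1.87, 5.64 and 2.28 CPM (log2 fold change 3.37 ± 0.33, adjusted p = 3.5e-08), Smtn, smoothelin, at a log2 fold change of 0.95, and Mylk, the kinase of the myosin light chain, at 1.05 with an adjusted p of 0.0139 that was lost in 7 alternatives. The defining smooth muscle genes Acta2, Cnn1 and Actg2 had no count in the basal cycling sums of any plate and means of 0.306, 0 and 0 CPM in the luminal sums. A count of 0 over the basal sums allows up to 1.00 CPM over the 3 plates (3 counts).

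Luminal markers split into those that fell and those that both groups shared. Of 28 luminal identity genes, 17 were tested, 9 were lower and 1 was higher in basal cycling cells, with a median log2 fold change of -0.83. Cd14, a surface receptor of luminal progenitors, stood at 1801, 1546 and 1479.6 CPM in luminal and 551, 276 and 377 CPM in basal cycling cells (log2 fold change -2.06 ± 0.10, adjusted p = 1.3e-13). The luminal keratin Krt18 stood at 216, 255 and 215 CPM against 86.3, 110.3 and 114 CPM (log2 fold change -1.15 ± 0.11, adjusted p = 1.4e-08). Its partner Krt8 did not pass, at 347, 318 and 311 CPM against 355, 292 and 284 CPM (log2 fold change -0.10 ± 0.08, adjusted p = 0.408), and its sign turned with thinned cells. Epcam, the epithelial adhesion molecule, likewise did not pass, with a log2 fold change of 0.12 ± 0.08. The claudins Cldn3 and Cldn7 (-1.61 and -1.42), the pioneer factor Foxa1 (-0.85), the ETS factor Ehf (-1.02) and the prolactin receptor Prlr (-0.83) were lower in basal cycling cells on the log2 scale, and Prlr lost its call with DESeq2, without plate 2 and without plate 3. The receptor kinase Kit was also lower, at 8.81, 9.96 and 10.7 CPM in luminal and 1.23, 0 and 0.734 CPM in basal sums. Tfap2c, an AP-2 factor, was the member that rose, at 125, 102 and 136 CPM in basal against 55.0, 51.8 and 84.2 CPM in luminal cycling cells (log2 fold change 0.89 ± 0.12, adjusted p = 7.6e-06).

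Secreted luminal products were lower in basal cycling cells for 11 of 11 tested, with 22 on the list and a median log2 fold change of -2.32. Saa1, a member with too few counts for this test, ran the other way. It stood at 14.8, 15.9 and 3.67 CPM in basal and 3.20, 2.32 and 2.28 CPM in luminal cycling cells of plates 1, 2 and 3. Without plate 3, 12 members were tested, and 1 was higher and 11 lower. The iron-binding lipocalin Lcn2 was the most abundant, at 10859, 7613 and 8188 CPM in luminal and 5724, 3114 and 3925 CPM in basal cycling cells (log2 fold change -1.12 ± 0.06, adjusted p = 1.5e-12). Trf, transferrin, stood at 3933, 5565 and 4720.4 CPM against 2178, 2199.9 and 2560.3 CPM (log2 fold change -1.05 ± 0.07), and Wfdc2, a secreted protein with protease inhibitor domains, at 1589, 1987 and 1632 CPM against 985, 692 and 939 CPM (-1.02 ± 0.10). Lcn2, Trf and Wfdc2 thus remained among the abundant transcripts of basal cycling cells, at about 2-fold lower levels. Csn3, a further casein, had no count in any basal cycling sum and 23.9 ± 3.36 CPM in the luminal sums (SD, n = 3), at least 23.7-fold lower when the basal group is set to a floor of 3 counts over the 3 plates.

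**Figure D3:**
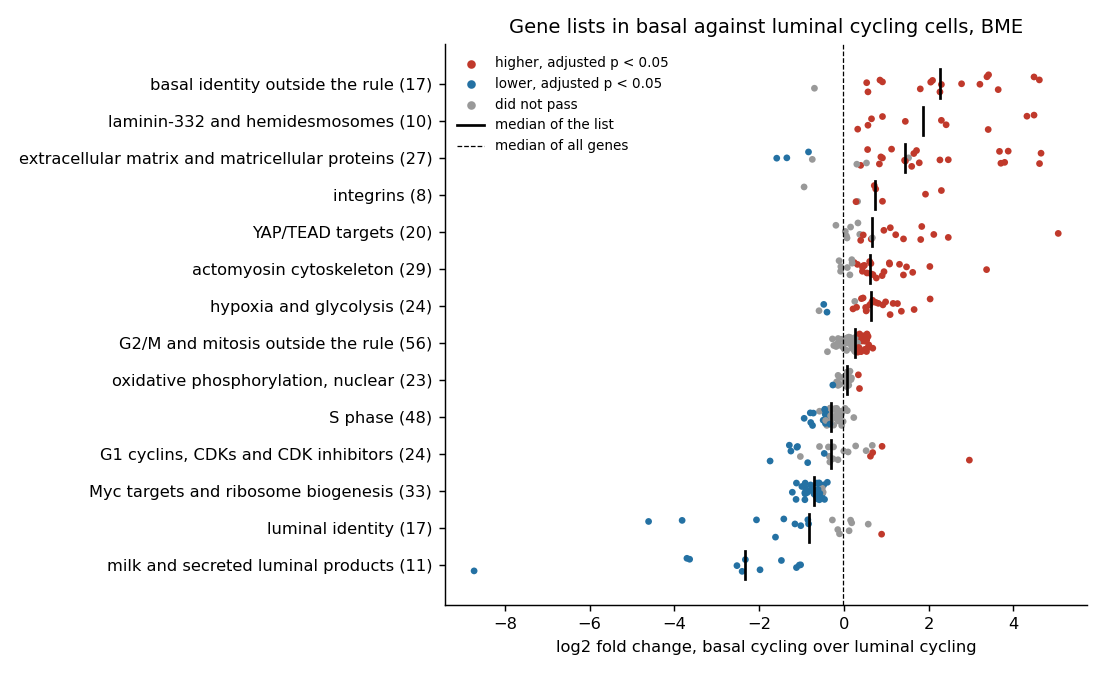
Log2 fold change of basal over luminal cycling cells for the tested members of 14 gene lists, with the number tested in brackets. Points are genes, colored by the edgeR call, black bars are list medians, and the dashed line is the median of all genes (-0.01). Basal identity (median 2.27) and hemidesmosome genes (1.88) lie to the right, and Myc target genes (-0.71) and secreted luminal products (-2.32) to the left. The point at the far left is Csn3, whose basal sums hold no count, so that its position depends on the prior count of the fit.

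Anchorage genes rose together. All 10 genes of laminin-332 and the hemidesmosome were tested and all 10 were higher in basal cycling cells, with a median log2 fold change of 1.88. Of these, Col17a1, Itga6, Itgb4 and Dst also belong to the basal identity list. Itgb4, the integrin chain of the hemidesmosome, stood at 298, 264 and 242 CPM in basal and 62.0, 52.1 and 45.9 CPM in luminal cycling cells (log2 fold change 2.30 ± 0.10, adjusted p = 5.0e-14). Plec, the plectin that ties it to keratin filaments, had a log2 fold change of 1.45 ± 0.11, and the tetraspanin Cd151 one of 0.65 ± 0.10. Of 8 integrin genes tested, 6 were higher and 0 lower, which is 75% called beside 24.5% over all genes. These included Itga3 at 0.75 ± 0.09 and Itgb1, the shared beta chain, at 0.29 ± 0.09 (adjusted p = 0.0165, lost in 4 alternatives, without plate 2 among them).

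Of 27 matrix and matricellular genes tested, 20 were higher, 3 were lower and 4 did not pass in basal cycling cells, with a median log2 fold change of 1.45. Col18a1, a basement membrane collagen, stood at 248, 381 and 291 CPM in basal and 80.7, 126 and 91.4 CPM in luminal cycling cells (log2 fold change 1.60 ± 0.09, adjusted p = 4.6e-12). Fn1, fibronectin, ran the other way, at 50.5, 29.4 and 103 CPM against 269.8, 158 and 157 CPM (-1.58 ± 0.21, adjusted p = 3.5e-06), as did Timp3, an inhibitor of metalloproteinases (-0.83 ± 0.11), and Plaur, the urokinase receptor, with 3.60 ± 1.35 and 8.66 ± 2.34 CPM (SD, n = 3). The mesenchymal filament Vim was higher in basal cycling cells, at 229, 403 and 359 CPM against 111, 78.0 and 129 CPM (1.60 ± 0.15, adjusted p = 1.3e-08), while Fn1 was lower, so that genes often listed together as mesenchymal moved apart.

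Many genes of the actomyosin cytoskeleton and many targets of YAP and TEAD were higher as well. Of 29 actomyosin genes, 22 were higher and 0 lower (75.9% called, beside 24.5% over all genes), with a median log2 fold change of 0.61. Among them were the actins Actb (0.64 ± 0.06) and Actg1 (0.64 ± 0.05). Of 20 targets of the YAP and TEAD factors, 12 were higher and 0 lower (60% called), with a median of 0.66. The number higher was 8 with DESeq2, 8 without the block and 8 without plate 3. With thinned cells 2 targets were tested and 0 were higher. Ajuba, a LIM protein of cell junctions, stood at 127, 87.0 and 112 CPM against 27.2, 24.2 and 22.1 CPM (2.12 ± 0.15), and Axl, a receptor kinase, at 126, 96.8 and 112 CPM against 48.1, 24.9 and 21.5 CPM (1.84 ± 0.16). Of 17 genes of desmosomes and tight junctions tested, 6 were higher and 7 lower. The desmosomal plaque genes Dsp and Jup were higher (1.49 ± 0.09 and 0.52 ± 0.11, the latter not called without plate 3), with the tight junction receptor F11r (0.52 ± 0.11), and the claudins named above were lower.

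Genes that control entry into the cell cycle differed between groups that were both cycling. Of 24 tested, 4 were higher and 7 lower in basal cycling cells, which is 45.8% called beside 24.5% over all genes. The D-type cyclins Ccnd1 and Ccnd2 differed in opposite directions. Ccnd1, the main D-type cyclin of the mammary gland, stood at 411, 449.8 and 574 CPM in luminal and 171, 209.6 and 220.2 CPM in basal cycling cells (log2 fold change -1.29 ± 0.09, adjusted p = 7.7e-11). Ccnd2 stood at 2.67, 4.32 and 3.25 CPM in luminal and 13.6, 39.2 and 31.6 CPM in basal cycling cells (2.96 ± 0.33, adjusted p = 2.3e-07). For both cyclins the 3 basal sums lay apart from the 3 luminal sums.

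The inhibitors of cyclin-dependent kinases also split. The INK4 inhibitors of the Cdkn2a and Cdkn2b loci were lower in basal cycling cells, Cdkn2a at 6.16, 7.35 and 10.3 CPM against 16.8, 23.2 and 18.2 CPM (-1.25 ± 0.31, adjusted p = 0.00370, lost with DESeq2) and Cdkn2b at 1.23, 4.90 and 6.61 CPM against 21.1, 14.9 and 11.7 CPM (-1.74 ± 0.42, adjusted p = 0.00305, lost without plate 1). The counts could not separate the Cdkn2a transcripts for p16 and p19Arf. The INK4 relatives Cdkn2c and Cdkn2d were higher, at 76.4, 33.1 and 36.7 CPM against 38.5, 25.2 and 24.1 CPM (0.68 ± 0.18, adjusted p = 0.00721, lost in 5 alternatives) and 35.8, 36.8 and 33.8 CPM against 15.5, 20.9 and 19.2 CPM (0.90 ± 0.21, adjusted p = 0.00233, lost in 2).

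Cdkn1a, Ccng1 and Mdm2 were further genes of the cell cycle entry list that were lower in basal cycling cells. Cdkn1a, the p21 inhibitor, stood at 43.1, 68.6 and 43.3 CPM against 160.2, 65.4 and 107 CPM (-1.11 ± 0.21, adjusted p = 2.8e-04), and on plate 2 the basal value was the higher one. Without plate 3 its call was lost, as it was with DESeq2. Ccng1, cyclin G1, stood at 96.2, 98.0 and 97.6 CPM against 204, 145 and 171 CPM (-0.85 ± 0.11, adjusted p = 3.8e-06). Mdm2, the ubiquitin ligase of p53, had a log2 fold change of -0.46 ± 0.15 (adjusted p = 0.0239, lost in 6 alternatives), and the pocket protein gene Rbl1 was higher at 0.63 ± 0.13.

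**Figure D4:**
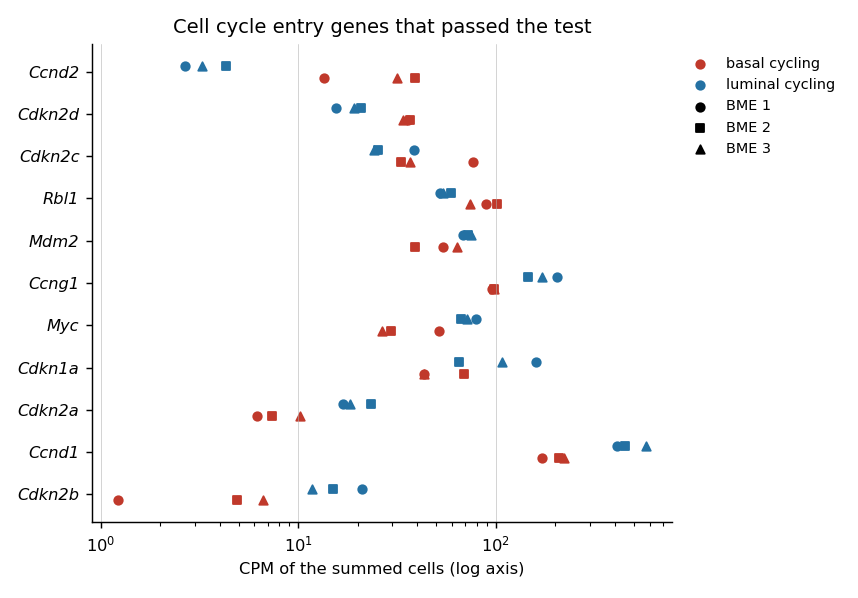
CPM on a log axis in the summed basal (red) and luminal (blue) cycling cells of plates 1 to 3 for the 11 cell cycle entry genes that passed the test, ordered by fold change. Ccnd2 runs from 13.6 to 39.2 CPM in basal and 2.67 to 4.32 CPM in luminal sums, and Ccnd1 from 171 to 220 CPM in basal and 411 to 574 CPM in luminal sums. Cdkn1a and Cdkn2c overlap between the groups.

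Myc and the genes of ribosome biogenesis were lower in basal cycling cells. Myc itself stood at 51.8, 29.4 and 26.4 CPM in basal and 79.1, 67.1 and 71.6 CPM in luminal cycling cells (-1.09 ± 0.17, adjusted p = 3.0e-05). Of 33 Myc target and ribosome biogenesis genes, all tested, 31 were lower and 0 higher, with a median log2 fold change of -0.71. Npm1, nucleophosmin, stood at 2366, 2255 and 2436 CPM against 3737, 2947 and 3691 CPM (-0.58 ± 0.06, adjusted p = 1.1e-07), and Ncl, nucleolin, at 514, 623 and 640.1 CPM against 834, 884 and 986 CPM (-0.64 ± 0.07, adjusted p = 2.1e-07). Summed over the list, the basal plates held 8366, 8427 and 8739 CPM and the luminal plates 13188, 12048 and 13294 CPM, without overlap. The count stayed at 24 or more lower and 0 higher in each alternative that tested all 33, and 8 of 21 were lower with cells thinned to 2000 counts.

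The phases of the cycle leaned in opposite directions with small changes. Of 48 S phase genes tested, 13 were lower and 0 higher in basal cycling cells, with a median log2 fold change of -0.31. That is 27.1% called, close to the 24.5% called over all genes, of which 11.5% were lower. Pcna, the sliding clamp of DNA polymerase, stood at 454, 579.7 and 476 CPM against 726, 599 and 659 CPM (-0.43 ± 0.09, adjusted p = 9.7e-04, lost without the block, without plate 3 and with thinned cells), and Mcm7, of the replicative helicase, at 209.6, 202 and 170.3 CPM against 270.0, 251 and 248 CPM (-0.44 ± 0.09). Rrm1, a subunit of ribonucleotide reductase, did not pass (0.08 ± 0.09). Of 56 G2 and mitosis genes outside the rule, 23 were higher and 0 lower, with a median of 0.27. This is 41.1% called, beside 24.5% called and 13.0% higher over all genes. Cenpa, the centromeric histone, stood at 476, 317 and 321 CPM against 293, 223 and 214 CPM (0.57 ± 0.08, adjusted p = 1.1e-05, lost without the block and with thinned cells), whereas Hmgb2 and Tmpo did not pass (-0.18 and -0.14).

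The G2 and mitosis result moved with the gate. When the cycling sum had to reach 12, 7 of these genes were higher and 3 lower, and with stricter keratin limits 6 were higher and 3 lower. Of the 56 genes 12, 19 and 14 were higher without plates 1, 2 and 3, 4 with DESeq2 and 4 without the block for plate. The 13 lower S phase genes were 7, 21 and 6 without plates 1, 2 and 3, 2 with DESeq2 and 4 without the block. Over all 9742 genes tested, DESeq2 called 669 higher and 443 lower. The summed level of the S phase genes was lower in basal cells on every plate, at 3122, 4777 and 4055 CPM against 4503, 4854 and 4804 CPM, and on plate 2 the 2 sums were close. Since the rule selected cells on genes of G2 and mitosis, and basal cycling cells had the higher sum of these genes, the part of the gate in this difference was not tested.

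Genes of glycolysis and the hypoxia response were higher in basal cycling cells. Of 24 hypoxia and glycolysis genes tested, 20 were higher and 2 lower, with a median log2 fold change of 0.63. Pgk1, Pgam1 and Ldha, enzymes of the later steps of the pathway, differed by 0.66 ± 0.06, 0.75 ± 0.06 and 0.53 ± 0.06 on the log2 scale (adjusted p = 3.0e-08, 1.2e-09 and 1.9e-07). Pgk1 stood at 1979, 1624 and 1695 CPM in basal and 1136, 1021 and 1126 CPM in luminal cycling cells, with no overlap. The pyruvate kinase Pkm rose less (0.30 ± 0.06). Of 23 nuclear genes of oxidative phosphorylation, 2 were higher and 1 lower, which is 13.0% called beside 24.5% over all genes, with a median of 0.07.

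Signaling genes were divided between the groups by ligand. In the EGF family, Nrg1, neuregulin 1, stood at 9.86, 8.58 and 6.61 CPM in basal and 0.267, 1.33 and 0.976 CPM in luminal cycling cells (3.21 ± 0.61, adjusted p = 3.1e-04), while Hbegf, a ligand of Egfr, stood at 3.70, 7.35 and 11.01 CPM against 16.0, 23.2 and 24.1 CPM (-1.49 ± 0.31, adjusted p = 7.1e-04). The receptor Egfr was higher in basal cycling cells, at 44.4, 46.6 and 45.5 CPM against 25.9, 24.9 and 23.4 CPM (0.85 ± 0.18, adjusted p = 1.0e-03), and its feedback inhibitor Errfi1 was lower (-0.71 ± 0.12). Phlda1, which is induced by ERK signals, was lower as well (-1.62 ± 0.10, adjusted p = 1.4e-11). It had the lowest value of 12 ERK feedback and ETS genes tested. Of these 12, 2 were higher and 4 lower, with values up to 0.99.

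Of 11 Notch genes tested, 6 were higher and 2 lower in basal cycling cells, which is 72.7% called beside 24.5% over all genes. The ligands rose with Dll1, Jag2 at 40.7, 40.4 and 37.4 CPM against 2.94, 4.32 and 3.58 CPM (3.41 ± 0.28, adjusted p = 2.7e-09) and Jag1 at 1.07 ± 0.19. The receptor Notch1 had a log2 fold change of 0.49 ± 0.15 (adjusted p = 0.0161), overlapped between the groups and lost its call in 5 alternatives, and Notch3 was lower, with means of 3.35 CPM in basal and 22.5 CPM in luminal cycling cells. Of 13 Wnt genes, 6 were higher and 0 lower (46.2% called), and 3 were higher without plate 3. Sfrp1, a secreted Wnt inhibitor, stood at 311, 278 and 197 CPM against 53.4, 48.8 and 36.4 CPM (2.47 ± 0.10, adjusted p = 2.8e-14). Of 20 activin, TGF-beta and BMP genes, 10 were higher and 1 lower (55% called). The lower one was Inhbb, an activin subunit, at 144, 66.2 and 99.8 CPM against 250.2, 205 and 229 CPM (-1.19 ± 0.12), opposite to the activin antagonist Fst.

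The same contrast was made in cells under the cycling gate, to see which basal-luminal differences held whether or not the cells passed the gate. These cells are called non-cycling for short. Most of them held counts of the gating genes, with a median cycling sum of 1.81 in basal and 1.96 in luminal cells. Whether they were outside the cell cycle was not tested. In these cells 2097 of 9940 genes were called (21.1%), 1193 higher and 904 lower (9.09%) in basal cells. Of 2376 genes that passed in cycling cells and were tested in both, 1382 also passed in non-cycling cells in the same direction and 5 in the opposite direction. Trp63 had log2 fold changes of 3.38 in cycling and 2.89 in non-cycling cells, Ccnd1 of -1.29 and -1.40, and Cxcl5 of -3.64 and -4.05. For Ccnd2 these values were 2.96 and 4.23. Of the 33 Myc target genes, 24 were lower and 0 higher in non-cycling basal cells, with a median log2 fold change of -0.52.

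The difference between the 2 contrasts was tested directly, as the interaction of keratin class and cycling gate. It passed for 42 of 9940 genes (0.423%), 31 higher and 11 lower, and 935 genes had an unadjusted p under 0.05. Col18a1 had the firmest call. Basal levels were 248, 381 and 291 CPM in cycling and 222, 385 and 267 CPM in non-cycling cells of plates 1, 2 and 3, and luminal levels were 80.7, 126 and 91.4 CPM in cycling and 162, 289 and 224 CPM in non-cycling cells, a difference of 1.23 ± 0.13 on the log2 scale (adjusted p = 4.4e-06, edgeR quasi-likelihood test). B2m, the light chain of MHC class I, had a higher luminal level in non-cycling cells too, at 298, 300.3 and 273 CPM in basal and 133, 103 and 115 CPM in luminal cycling cells and at 349, 259 and 311 and 222, 175 and 212 CPM in non-cycling cells (difference 0.71 ± 0.14, adjusted p = 0.0183). For Lcn2 the basal-luminal gap was smaller in cycling cells, with log2 fold changes of -1.12 in cycling and -1.79 in non-cycling cells (difference 0.68 ± 0.09, adjusted p = 2.2e-04).

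Calls for this difference were also counted in the gene lists, beside 0.423% over all genes. Of 14 milk and secreted luminal genes tested for it, 5 were called, 3 higher (Lcn2, Spp1 and Saa1) and 2 lower (Csn1s1 and Wfdc18). Of 18 basal identity genes tested for this difference, 1 was called. This was Krt15, a keratin of basal progenitors, which stood at 25.0 ± 10.1 CPM in basal and 3.55 ± 1.92 CPM in luminal non-cycling cells (SD, n = 3), beside the low values in both cycling groups given above. Of 56 G2 and mitosis genes, 3 were called, all of them with the larger basal-luminal value in cycling cells. Without plate 2 the difference was called for 11 genes, and without plate 3 likewise for 11.

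**Figure D5:**
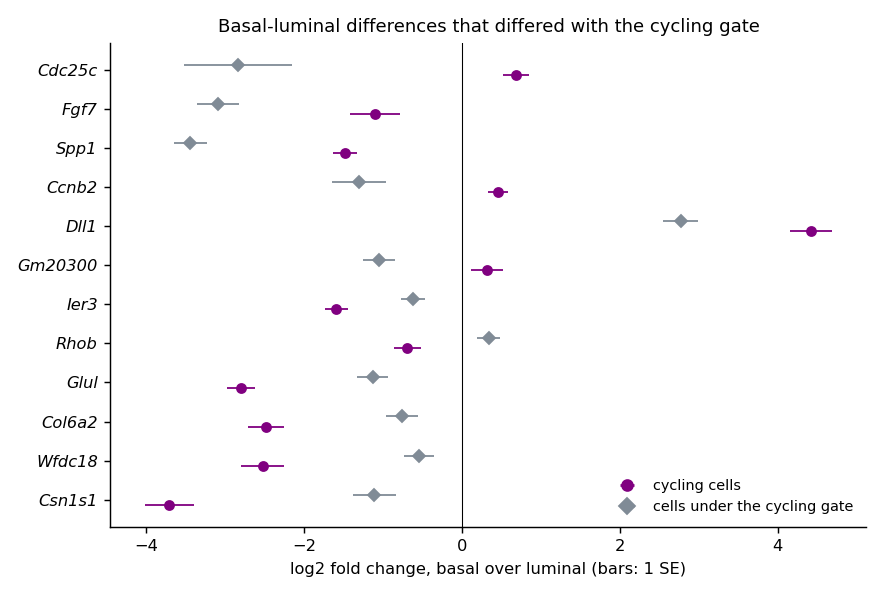
Log2 fold change of basal over luminal cells (bars, 1 SE) in cycling cells (circles) and in cells under the cycling gate (diamonds), for the 12 genes of at least 50 CPM with the largest called difference between them. Cdc25c lies at 0.68 in cycling and -2.83 in non-cycling cells, and Csn1s1 at -3.70 and -1.11.

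Markers of other cell types were low. Of 9 fibroblast markers 2 were tested and neither passed, and the summed list ran from 22.8 to 29.6 CPM in basal and from 14.3 to 33.1 CPM in luminal cycling sums. Immune and endothelial markers had no member with enough counts for a test. The immune list summed to 0 to 4.40 CPM in basal and 5.53 to 6.68 CPM in luminal cycling sums, and the endothelial list to 2.20 to 3.70 CPM and 1.95 to 4.32 CPM. The immune members Lyz2, Csf1r and Cd3e were at 0 in all 6 sums, and the counts came from other members of the list. With no filter on low counts 4 immune members were tested, and 1 was lower and 0 higher in basal cycling cells.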

How the data were processed

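Single cells of MMTV-PyMT organoids were profiled by SORT-seq, a plate-based form of CEL-Seq2, on 3 BME plates and 2 Collagen I plates of 384 wells. The authors deposited expected counts per gene and well, which are transcript numbers estimated from distinct molecular barcodes, after mapping with BWA to mm10, per the labels and methods. The values were not normalized between wells. The labels give barcodes of 4 bases, and the correction behind the estimates was not rebuilt here. The 3 BME plates held 9077590 to 10911740 counts each, and 259 to 286 wells per plate were kept. Spike-in rows were dropped. The plates share their set of well barcodes by construction and were 1 library each.

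Cells were gated as described, summed per plate and group, and rounded. Sums were fitted in edgeR 4.0.16 (R 4.3.3) with TMM, filterByExpr and the quasi-likelihood test, with the plate as a block and Benjamini-Hochberg adjustment over all genes. The SE was taken as the absolute log2 fold change over sqrt(F). The interaction was fitted on 12 sums. The fit was tested on simulated data. Doublets were not called. Instead an alternative dropped, on each plate, the 5% of wells with the most counts. Both groups of a plate come from the same library, and the sums were paired by plate for this reason. Deviations from the group means correlated across genes by 0.423, 0.238 and 0.114 within plates, against -0.311 to 0.123 between plates. For plate 3 the within-plate value of 0.114 was below both values between plates 2 and 3, at 0.116 and 0.123. Deviations from a group mean cancel out over the plates, so positive values within plates push those between plates down. The correlations therefore cannot decide whether every plate pairs its sums.

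Genes were named by a rule: the 9 gating genes, the 12 largest changes per direction (adjusted p under 0.05, plates apart, at least 50 CPM in one group), the 6 with the largest called interaction in each direction, up to 4 genes of each list by CPM, and every called member of the basal identity, luminal identity and cell cycle entry lists. Of 160 genes, 31 stay in the tables. Krt15, Csn3, Saa1, Plaur, Notch3, the contractile and immune genes at 0 and the 4 motifs were chosen after their values were seen. The cell groups and gene lists were chosen with earlier results of these data known. Positions are from GENCODE vM21, on the same assembly as mm10. The alternatives were DESeq2 1.42.0, limma-voom (limma 3.58.1), RLE size factors, library size only, no block, no filter or a minimum of 50 counts, each plate left out, cells thinned to 2000 counts, over 8000 counts per well, mitochondrial genes under 10%, other keratin and cycling limits, and dominant transcripts left out.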

Additional observations from a re-analysis of the deposited data

Results flagged for a closer look

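The basal-luminal difference itself differed between cycling and non-cycling cells, by the interaction test (edgeR, adjusted p under 0.05), for 42 genes, of which the 6 largest in each direction with at least 50 CPM in one group are given. The difference was shifted toward basal in cycling cells for the mitotic phosphatase Cdc25c (log2 difference of the differences 3.52), the growth factor Fgf7 (2.01), the secreted phosphoprotein Spp1 (1.92), the mitotic cyclin Ccnb2 (1.77), the Notch ligand Dll1 (1.68) and the unnamed locus Gm20300 (1.37). It was shifted toward luminal in cycling cells for the casein Csn1s1 (-2.57), the milk protein gene Wfdc18 (-2.04), the collagen chain Col6a2 (-1.73), glutamine synthetase Glul (-1.67), the small GTPase Rhob (-1.02) and the immediate early gene Ier3 (-0.98).

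Spp1 stood at 90.00, 115 and 84.4 CPM in basal and 267, 185 and 326 CPM in luminal cycling cells of plates 1, 2 and 3, and at 28.9, 79.5 and 62.9 CPM and 399, 772 and 753 CPM in non-cycling cells (adjusted p = 0.00206, edgeR quasi-likelihood test). Luminal Spp1 was thus lower in cycling than in non-cycling cells on every plate. Glul stood at 14.8, 20.8 and 13.2 CPM in basal and 116, 105 and 104 CPM in luminal cycling cells, and at 28.1, 35.7 and 67.2 CPM and 123, 80.4 and 81.6 CPM in non-cycling cells (adjusted p = 0.0269). In basal cells Glul was lower in cycling than in non-cycling cells on every plate.

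Dll1 stood at 62.9, 55.2 and 57.3 CPM in basal and 3.20, 1.99 and 2.60 CPM in luminal cycling cells, and at 68.3, 50.9 and 40.8 CPM and 8.88, 8.86 and 5.94 CPM in non-cycling cells (adjusted p = 0.0399). Cdc25c stood at 55.5, 49.0 and 58.7 CPM and 28.6, 35.2 and 36.1 CPM in cycling cells and at 1.61, 0 and 0.850 CPM and 2.37, 7.59 and 5.94 CPM under the gate (adjusted p = 0.0183). Cdc25c and Ccnb2 belong to the same phase as the genes of the cycling gate, and the part of the gate in their result was not tested. Without the block for plate 0 of the 12 genes passed, and the call was kept for 1 of 12 without plate 2 and for 3 of 12 without plate 3. Calls were lost for 9 of 12 with stricter keratin limits, for 7 of 12 with a cycling sum of at least 12, for 6 of 12 with limma-voom and for 8 of 8 tested with thinned cells. With DESeq2, 2 of the 12 kept the call, 2 lost it, and the others were given no adjusted p.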

How the results depend on the processing

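For genes named by the rule, printed here and tested in cycling cells, the direction held in each alternative that tested them. The exception was Krt8, whose log2 fold change was 0.23 with cells thinned to 2000 counts. The number of genes called between basal and luminal cycling cells was 1112 with DESeq2 and 146 (of 1834 tested) with thinned cells, and 1378 to 2186 with 1 plate left out, the lowest without plate 3. The number called for the difference between cycling and non-cycling cells was 17 with DESeq2, 110 with no filter on low counts, 21 with over 8000 counts per well, 24 without the 5% of wells with the most counts, 0 with thinned cells (189 at an unadjusted p under 0.05) and 11 to 29 with 1 plate left out. The cause of these changes was not tested, apart from the fewer genes tested with thinned cells. With no replicate block, that is without pairing by plate, 1328 genes were called between the cycling groups and 0 for the difference (458 at an unadjusted p under 0.05), and the share of cycling cells had p = 0.2 (two-sided exact permutation test). The other alternatives gave counts within 1.5 times of those reported, but with a cycling sum of at least 12 only 10 of the 42 genes were among the 57 called for the difference. The difference in the share of cycling cells ranged from -27.8 points (without plate 3) to -8.51 points (cycling sum of at least 12). The planned comparisons in Collagen I and their alternatives were not run, because each plate held fewer than 10 basal cycling cells. Depth limits genes such as Kit and Nrg1, whose lower group holds 0 to 1.33 CPM per plate.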

Other observations

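Gene groups not described above also differed between basal and luminal cycling cells. Of 12 interferon and MHC class I genes tested, 6 were higher and 0 lower in basal cycling cells, with a median log2 fold change of 0.54, beside 13.0% higher over all genes, and 3 of 10 tested were higher without plate 3. Tapbp, which loads peptides onto MHC class I, stood at 221, 163 and 149.7 CPM in basal and 130.1, 102 and 88.8 CPM in luminal cycling cells (0.70 ± 0.10, SE; adjusted p = 9.4e-06, edgeR quasi-likelihood test). The heavy chain H2-K1 was close to the threshold (0.21 ± 0.08, adjusted p = 0.0465) and lost its call in 12 alternatives. Of 25 genes of cholesterol and fatty acid synthesis, 2 were higher and 8 lower (40% called, beside 24.5% over all genes), with a median of -0.15, and 4 were lower without plate 3. Of 9 genes of epithelial-mesenchymal transition and cadherins, 5 were higher and 0 lower (55.6% called), with a median of 0.60. This list is not independent of those above. It shares Snai2 and Cdh3 with the basal identity list and holds Vim, which was given with the matrix genes.

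Immediate early and stress genes split evenly, with 4 higher and 4 lower of 16 tested. The AP-1 subunits went apart, Junb at 192, 235 and 161 CPM in basal and 129.5, 169 and 115 CPM in luminal cycling cells (0.48 ± 0.10, adjusted p = 5.3e-04) and Jund at 126, 80.9 and 86.6 CPM against 235, 152 and 149.6 CPM (-0.89 ± 0.11, adjusted p = 7.0e-07). Of 12 genes of ERK feedback and ETS factors, 2 were higher and 4 lower, with a median of -0.23. Of 6 EGF family genes tested, 2 were higher and 2 lower. The ligand Tgfa did not pass, at 40.7, 20.8 and 15.4 CPM against 22.97, 15.9 and 13.99 CPM (0.46 ± 0.24). In the Wnt list, the feedback inhibitor Nkd2 (0.59 ± 0.15, not called without plate 1) and the receptor Fzd7 (0.34 ± 0.12, adjusted p = 0.0383, lost in 8 alternatives) were among those higher, and the co-repressor Ski of the TGF-beta list stood at 0.72 ± 0.11. The remaining named genes Dst, Itga6, Eif5a and Hspe1 had log2 fold changes of 0.57, 0.91, -0.47 and -0.46. The call of Dst was lost with DESeq2, without the block, without plate 3 and with a cycling sum of at least 12, and that of Eif5a without the block.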
